A study of Homo sapiens with 6 samples.

Results

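CD74 and the genes for the MHC class II machinery were examined in RNA-seq of OVCAR5 and OVCAR5R cells. The 10 genes were CD74, CIITA, HLA-DRA, HLA-DRB1, HLA-DPA1, HLA-DMA, HLA-DMB, RFX5, CTSS and IFI30. They were selected on CD74, which stood out as lower in OVCAR5R in these same libraries, together with genes that work with it, so their values in the 2 lines are given as a description, and no call of a member is read as a test. All 10 had a row in the deposited table, out of 12308 different rows, and all 10 were among the 11766 genes that reached a value of 1 in at least 3 libraries. CIITA, HLA-DRA and HLA-DRB1 reached that level only through the OVCAR5 libraries.

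OVCAR5 is an established ovarian cancer cell line, described by the study as high-grade serous, wild type for BRCA and p53 null. OVCAR5R is its derivative resistant to prexasertib (Prex), an inhibitor of the checkpoint kinase CHK1, and was obtained by raising Prex stepwise to 3 µM during 3 to 4 months. OVCAR5R was kept at 2 µM Prex and was then grown free of drug for at least 4 days before use, and both lines shared the same medium with serum and insulin. Total RNA from 3 cultures of each line was sequenced. The comparison is of 1 derived line with its parent, so resistance and any other change gained during months of selection cannot be told apart, and whether OVCAR5R is a single clone was not stated in the sources used here.

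MHC class II molecules are pairs of an alpha and a beta chain that display peptides from endocytosed proteins to CD4+ T cells. CD74, the invariant chain, is a chaperone that holds newly made class II pairs, fills their peptide groove and carries them to endosomes, where proteases trim it and HLA-DM exchanges its last fragment for peptide. The genes are mostly switched on together by CIITA, a co-activator that docks on RFX, CREB and NF-Y proteins bound side by side at the X and Y boxes of class II promoters. Dendritic cells, macrophages and B cells make class II at all times, whereas epithelial and tumour cells often need interferon-gamma to induce CIITA.

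The values are the normalized signal that the authors deposited, in which each library sums to between 937274 and 1038240. The steps between low values put the depth, in units of 1e6 estimated reads, at 35.8 to 41.3 for OVCAR5 and at 50.3 to 55.1 for OVCAR5R. One library stood apart. On the first principal component, which held 45.5% of the variance, OVCAR5 replicate 2 lay at -72 and the other 5 libraries lay between -10.6 and 34.6. Epithelial markers were also high in that culture: EPCAM, a surface adhesion molecule, was at 597 against 15.9 and 11.9 in the other OVCAR5 cultures. The 9 of 12 listed epithelial and ovarian carcinoma markers with a row summed to 17662 there. They summed to 2408 and 2495 in the other OVCAR5 cultures and to between 3616 and 4829 in OVCAR5R. Most of each sum came from the keratins KRT8 and KRT18, at 7772 and 6196 in OVCAR5 replicate 2, so it does not speak for all 9. Of the 8 tested, 7 had a lower fitted mean in OVCAR5R and 1 a higher one, with OVCAR5 replicate 2 included. Since the class II genes were highest in the same library, their values are given below for each culture and, where it matters, without OVCAR5 replicate 2. The part of this library in the results was tested only by leaving it out.

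The promoters of several members hold the letters that a class II promoter is known for. The stretches below, from RefSeq, run from 120 to 11 bases before the annotated gene start and are written 5′ to 3′ on the gene's own strand. Capitals mark TGATGA, the core letters of an X2-type box, and CCAAT, the core of a Y box, also when it reads ATTGG from the other strand. CD74, HLA-DRB1 and HLA-DMA are shown because both sets of letters stand close together there, HLA-DMB because they stand farther apart, and HLA-DPB1 and RFX5 because only CCAAT is present.

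CD74 (GRCh38.p14, chr5:150412921-150413030, minus strand): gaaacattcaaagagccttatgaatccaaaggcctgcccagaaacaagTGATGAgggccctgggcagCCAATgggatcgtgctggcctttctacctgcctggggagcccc
HLA-DRB1 (GRCh38.p14, chr6:32589859-32589968, minus strand): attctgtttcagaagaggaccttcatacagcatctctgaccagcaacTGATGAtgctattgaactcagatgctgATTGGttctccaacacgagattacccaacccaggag
HLA-DMA (GRCh38.p14, chr6:32953108-32953217, minus strand): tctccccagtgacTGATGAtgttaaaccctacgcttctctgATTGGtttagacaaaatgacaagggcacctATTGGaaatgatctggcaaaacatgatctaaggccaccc
HLA-DMB (GRCh38.p14, chr6:32941039-32941148, minus strand): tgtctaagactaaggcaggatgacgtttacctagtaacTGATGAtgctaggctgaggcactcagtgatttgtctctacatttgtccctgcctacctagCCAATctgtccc
HLA-DPB1 (GRCh38.p14, chr6:33075870-33075979, plus strand): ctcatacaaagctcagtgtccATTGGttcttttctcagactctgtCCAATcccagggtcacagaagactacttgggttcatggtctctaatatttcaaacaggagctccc
RFX5 (GRCh38.p14, chr1:151347263-151347372, minus strand): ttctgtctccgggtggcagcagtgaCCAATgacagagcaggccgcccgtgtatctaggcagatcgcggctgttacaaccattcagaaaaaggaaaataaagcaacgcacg

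In CD74, 19 bases separate the first letter of TGATGA from the first letter of CCAAT. The same distance was 27 bases in HLA-DRB1 and 28 bases in HLA-DMA. In HLA-DMB, TGATGA began 82 bases and CCAAT 22 bases before the start. Windows were on file for 7 of the 10 members, and those of CIITA, HLA-DRA and CTSS were not analysed here. Both motifs were searched on both strands of windows from 250 bases before to 50 bases after each start. A member was counted if any of its windows had a match, whereas the shares are of single windows. RFX5 had 3 windows and HLA-DPA1 had 2, which favours a match for them. CCAAT occurred in 6 of the 7 members with a window and in 34.6% of all 35116 windows, and TGATGA occurred in 5 of the 7 and in 10.9%. TGATGA followed after 15 to 35 bases by CCAAT or ATTGG occurred in 3 of the 7 and in 0.473% of all windows, and the 2 motifs cannot overlap at that spacing. The motifs and the spacing were chosen after the sequences had been seen, and a match describes letters, not a bound site. In HLA-DPA1, neither motif was found in the first window and TGATGA lay after the start of the second.

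**Figure D1:**
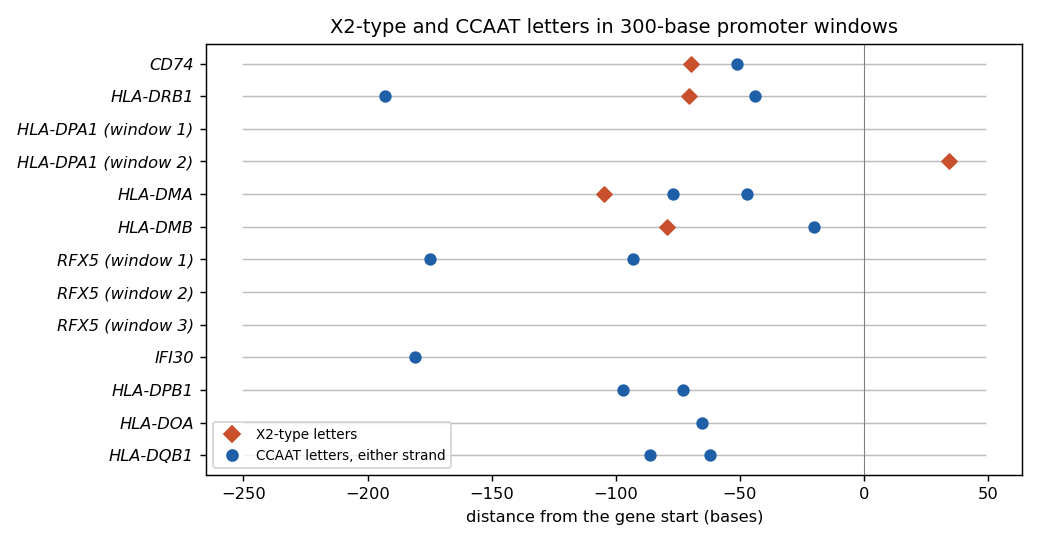
Positions of TGATGA (diamonds) and CCAAT on either strand (circles) in the RefSeq promoter windows of the 7 members with a window and of HLA-DPB1, HLA-DOA and HLA-DQB1; the x axis is the distance from the gene start in bases, and each grey line is 1 window. CD74, HLA-DRB1 and HLA-DMA hold both motifs with CCAAT 19, 27 and 28 bases after TGATGA.

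The signal for CIITA, the master co-activator of class II genes (chromosome 16, 10866222 to 10943021, plus strand, hg38), stood at 5.37, 32.9 and 15.1 for replicates 1, 2 and 3 of OVCAR5, in that order, as everywhere below. For OVCAR5R the values of replicates 1, 2 and 3 were 0.770, 0.674 and 0.804. Every OVCAR5 culture was above every OVCAR5R culture, and the lowest OVCAR5 value was 6.68 times the highest OVCAR5R value. The OVCAR5R values differed among themselves by no more than 1.19-fold, whereas OVCAR5 replicate 2 was 6.13 times replicate 1. On the log2(value + 1) scale the fitted difference, OVCAR5R minus OVCAR5, was -3.11 (SE 0.56), and it was -2.53 without OVCAR5 replicate 2. The OVCAR5R values rest on 37.2 to 43.2 estimated reads each. CIITA overlaps DEXI on the opposite strand over 13570 bases, and whether counting used strand was not given in the sources used here. DEXI itself had nearly the same mean in both lines, 30.8 ± 7.33 in OVCAR5 and 30.3 ± 4.36 in OVCAR5R (SD, n = 3).

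CD74 (chromosome 5, 150401637 to 150412929, minus strand) had the highest signal of the members per kilobase of transcript in OVCAR5. Its value was 127 in OVCAR5 replicate 1, 936 in replicate 2 and 378 in replicate 3, and it was 6.58, 8.63 and 9.32 in the OVCAR5R replicates. The lines did not overlap: the lowest OVCAR5 culture was 13.6 times the highest OVCAR5R culture, and the OVCAR5 mean was 58.8 times the OVCAR5R mean (480 ± 414 against 8.18 ± 1.43, SD, n = 3). The fitted difference was -5.29 (SE 0.62) on the log2(value + 1) scale and -4.60 without OVCAR5 replicate 2. CD74 was still detected in OVCAR5R, at 349 to 500 estimated reads in a library. In bulk RNA, fewer cells expressing a gene and less RNA in each cell cannot be told apart, which holds for every gene described here.

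The classical class II pair HLA-DR presents peptide through an alpha chain, HLA-DRA, and a beta chain, HLA-DRB1. HLA-DRA (chromosome 6, 32439842 to 32445046, plus strand) was at 10.5, 133 and 32.8 in OVCAR5 and at 0.452, 0.181 and 0.745 in OVCAR5R. HLA-DRB1 (chromosome 6, 32578769 to 32589848, minus strand) was at 2.56, 49.8 and 9.95 in OVCAR5 and at 0.468, 0.0724 and 0.291 in OVCAR5R. For both chains all 3 OVCAR5 cultures lay above all 3 OVCAR5R cultures, by 14.1-fold and 5.48-fold between the nearest libraries. The OVCAR5R values are close to the limit of detection, at 24, 10 and 40 estimated reads for HLA-DRA and 24.8, 4 and 15.6 for HLA-DRB1. The fitted differences on the log2(value + 1) scale were -4.70 (SE 0.77) for HLA-DRA and -3.31 (SE 0.84) for HLA-DRB1. Without OVCAR5 replicate 2 they were -3.78 and -2.30, and with a pseudocount of 0.1 in place of 1 they were -6.15 and -5.03. HLA-DRB1 shares long stretches with other DRB genes and is highly polymorphic, so reads may have been split among copies or lost, and its level is uncertain.

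HLA-DPA1 codes for the alpha chain of HLA-DP, another peptide-presenting pair (chromosome 6, 33064569 to 33080775, minus strand). It was at 5.04, 61.9 and 17.7 in OVCAR5 and at 1.40, 2.77 and 3.54 in OVCAR5R. The groups did not overlap, but OVCAR5 replicate 1 was only 1.42 times OVCAR5R replicate 3. The fitted difference was -2.48 (SE 0.75), and -1.62 without OVCAR5 replicate 2. Its partner HLA-DPB1, the beta chain of HLA-DP and not one of the 10 genes, was at 1.32, 26.9 and 3.37 in OVCAR5 and at 2.76, 15 and 13.2 in OVCAR5R. These groups overlapped, and the difference of 0.53 (SE 0.93) did not pass the test (limma, Benjamini-Hochberg adjusted p = 0.878). Per kilobase of transcript, the ratio of HLA-DPB1 to HLA-DPA1 was 0.285, 0.475 and 0.208 in OVCAR5 and 2.16, 5.92 and 4.08 in OVCAR5R. The beta chain was therefore below the alpha chain in each OVCAR5 library and above it in each OVCAR5R library, which was noticed after the values were seen and was not tested. The 2 genes overlap over 4850 bases on opposite strands, so without strand their reads cannot be told apart in the shared stretch.

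HLA-DMA and HLA-DMB form HLA-DM, which stays in endosomes and loads peptide onto other class II pairs. HLA-DMA (chromosome 6, 32948613 to 32969094, minus strand) was at 9.60, 36.5 and 10.2 in OVCAR5 and at 4.41, 5.68 and 5.54 in OVCAR5R. HLA-DMB (chromosome 6, 32934629 to 32941070, minus strand) was at 3.34, 17.8 and 3.45 in OVCAR5 and at 1.98, 1.79 and 1.83 in OVCAR5R. Neither gene overlapped between the lines, and for both the lowest OVCAR5 culture was 1.69 times the highest OVCAR5R culture. Replicates 1 and 3 of OVCAR5 were nearly level with each other for these genes, at a ratio of 1.06 for HLA-DMA and 1.03 for HLA-DMB, and replicate 2 alone was high. The fitted differences of -1.41 (SE 0.48) and -1.32 (SE 0.56) became -0.82 and -0.62 without that culture. Both genes lie partly within AL645941.2, a protein-coding gene model on the same strand, over 4510 bases for HLA-DMA and 3707 for HLA-DMB. That model was not analysed here, and how shared reads were divided was not given in the sources used here. HLA-DMA also shares 435 bases with BRD2 on the opposite strand, and BRD2 was at 208 ± 22.8 in OVCAR5 and 197 ± 14.6 in OVCAR5R (SD, n = 3).

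**Figure D2:**
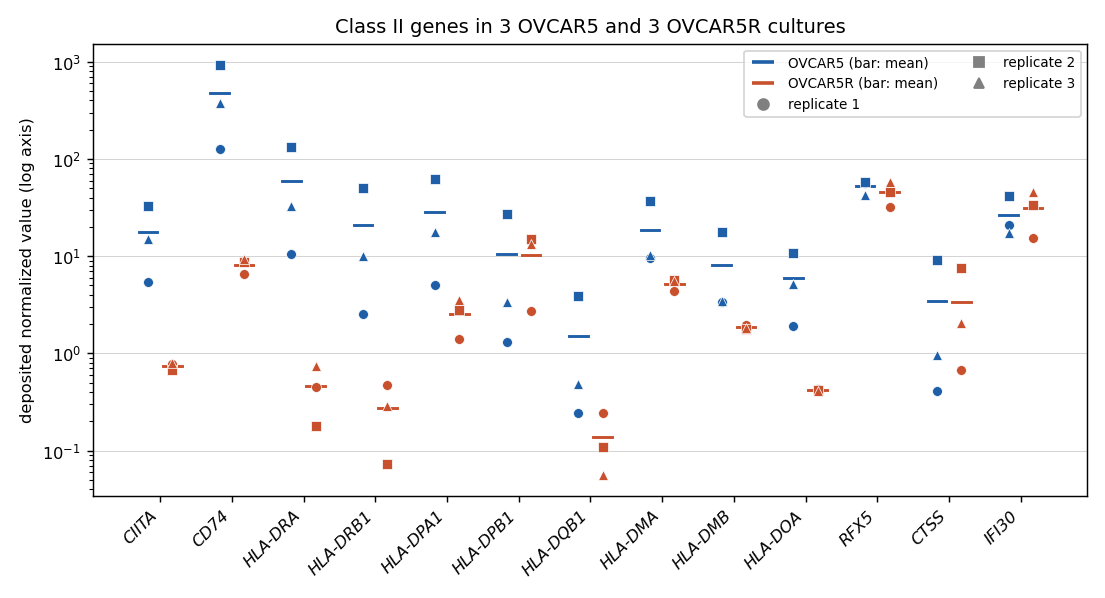
Deposited normalized value on a log axis for the 10 members and for HLA-DPB1, HLA-DQB1 and HLA-DOA in each of the 3 OVCAR5 cultures (blue) and 3 OVCAR5R cultures (orange); marker shapes give the replicate number and bars the mean. For CIITA, CD74, HLA-DRA, HLA-DRB1, HLA-DPA1, HLA-DMA and HLA-DMB each OVCAR5 point is above each OVCAR5R point, and OVCAR5 replicate 2 is the highest point.

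RFX5, CTSS and IFI30 overlapped between the lines. RFX5, a subunit of the RFX complex that binds the X box (chromosome 1, 151340640 to 151347357, minus strand), was at 57.0, 58.2 and 42.7 in OVCAR5 and at 32.1, 46.0 and 57.4 in OVCAR5R, with a fitted difference of -0.24 (SE 0.26). CTSS codes for cathepsin S, the protease that makes the last cuts in CD74 (chromosome 1, 150730196 to 150765957, minus strand). It was at 0.414, 9.07 and 0.963 in OVCAR5 and at 0.679, 7.49 and 2.07 in OVCAR5R, so the spread within each line, 21.9-fold between OVCAR5 replicates 2 and 1 and 11.0-fold within OVCAR5R, far exceeded the ratio of the means, 1.02. IFI30, a thiol reductase that opens disulfide bonds of proteins in endosomes (chromosome 19, 18173162 to 18178117, plus strand), was at 21.0, 41.1 and 17.3 in OVCAR5 and at 15.5, 33.3 and 45.9 in OVCAR5R. The fitted differences were 0.22 (SE 0.84) for CTSS and 0.22 (SE 0.45) for IFI30, and each took either sign when single libraries were left out. IFI30 lies within the longer gene AC007192.1 on the same strand over 4956 bases, and how the authors divided shared reads was not given in the sources used here.

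By count, 7 of the 10 members had every OVCAR5R library below every OVCAR5 library, a pattern that 8.18% of all genes tested had in this direction, and none had every OVCAR5R library above, against 8.40% of all genes. With limma and an adjusted p under 0.05 over all genes, 1 of the 10, CD74, was called, where 14 of all 11766 genes tested, or 0.119%, were called in either direction. Because the genes were chosen for CD74 in these libraries, the call of CD74 restates the choice and nothing is read from these counts. The median difference of the 10 members was -1.95 on the log2 scale and that of all genes tested was -0.00638.

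The levels of the members, in signal per kilobase of transcript and averaged over the 3 cultures of OVCAR5, ran from CD74 at 453 through HLA-DRA at 48.0, IFI30 at 23.4, RFX5 at 21.4, HLA-DMA at 18.6, HLA-DRB1 at 16.9, HLA-DPA1 at 16.6, HLA-DMB at 5.87 and CIITA at 4.74 to CTSS at 1.26. The OVCAR5 cultures were so unequal that the ranges of neighbours in this order from HLA-DRA down overlapped, and only CD74 lay clear of the next gene. Within each OVCAR5 library HLA-DPA1 was nevertheless above HLA-DMB and CIITA above CTSS. The other neighbours from HLA-DRA down changed order between libraries. In OVCAR5R the order was led by IFI30 at 27.8 and RFX5 at 18.4, followed by CD74 at 7.72, HLA-DMA at 5.17, HLA-DPA1 at 1.51, HLA-DMB at 1.34, CTSS at 1.23, HLA-DRA at 0.375, HLA-DRB1 at 0.225 and CIITA at 0.2. There RFX5 lay clear of CD74, CD74 of HLA-DMA and HLA-DMA of HLA-DPA1, and every other neighbouring pair overlapped. CD74 stayed far above HLA-DRA in each library: the ratio per kilobase was 13.9, 8.14 and 13.3 in OVCAR5 and 16.8, 55.1 and 14.4 in OVCAR5R, where the highest ratio rests on the 10 estimated reads of HLA-DRA in replicate 2. HLA-DRA to HLA-DRB1 was 4.12, 2.68 and 3.31 in OVCAR5 and 0.971, 2.51 and 2.57 in OVCAR5R.

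The 3 parental cultures were far from equal, and the class II genes were unequal in the same order. In 8 of the 10 members OVCAR5 replicate 2 was highest, replicate 3 next and replicate 1 lowest, an order that 17.6% of all genes tested had. RFX5 and IFI30 were the exceptions, with replicate 2 highest and replicate 3 lowest. HLA-DPB1, HLA-DOA and HLA-DQB1 had the order of the 8, which makes 11 of the 13 members and other class II chains. Replicate 3 was only 1.06 times replicate 1 for HLA-DMA and 1.03 times for HLA-DMB, so their order is close to a tie. The median SD of the members between OVCAR5 cultures was 1.33 on the log2(value + 1) scale, against 0.345 for all genes. Between the OVCAR5R cultures it was 0.258, against 0.248 for all genes. The log2(value + 1) scale flattens values under 1, so the evenness of the members in OVCAR5R is partly an effect of the scale. HLA-DRA ranged 4.12-fold between OVCAR5R cultures with an SD of only 0.282, and HLA-DRB1 ranged 6.46-fold with an SD of 0.228. OVCAR5 replicate 2 exceeded replicate 1 by a median of 2.62 on that scale, and replicate 3 exceeded replicate 1 by 0.90, whereas the medians over all genes were -0.00544 and -0.0131. The 7.37-fold range of CD74 between OVCAR5 cultures was thus accompanied by a 6.13-fold range of CIITA, a 12.6-fold range of HLA-DRA and a 19.4-fold range of HLA-DRB1. Replicate 3, which did not stand apart from the other libraries, was 2.98 times replicate 1 for CD74, 2.81 times for CIITA and 3.12 times for HLA-DRA.

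Profiles over the 6 libraries were compared with that of CD74 by the root mean square difference of log2(value + 1), each gene centred on its own mean. The nearest of 11765 genes was HLA-DRA at 0.42, where the median gene was at 2.79. Next came S100A4, a calcium-binding protein of motile cells, at 0.722, CALB1, the calcium buffer calbindin, at 0.845, MUC5AC, a secreted mucin, at 1.03, and ALDH3A1, an aldehyde dehydrogenase, at 1.05. HLA-DRB1 ranked 6, CIITA 7, HLA-DPA1 19, HLA-DMA 92 and HLA-DMB 123, whereas RFX5 ranked 3057, IFI30 7148 and CTSS 7163. All of the profiles share the same libraries and the same difference between the lines, so the ranks are a description. S100A4 was at 70.0, 258 and 134 in OVCAR5 and 5.54, 8.51 and 9.15 in OVCAR5R, with replicate 2 highest as for CD74. CALB1 was at 61.1, 116 and 92.5 against 4.96, 1.83 and 1.27, in the same OVCAR5 order. MUC5AC, at 120, 225 and 65.9 against 1.41, 0.0362 and 0.373, had replicate 3 lowest. ALDH3A1 was at 2.61, 202 and 16.8 against 0.433, 0 and 0.280 and was also highest in OVCAR5 replicate 2. Without that culture HLA-DRA, S100A4 and CALB1 were again the nearest, followed by NOX5 at 0.809 and AKR1C2 at 0.844, and ALDH3A1 ranked 10 and MUC5AC 18. Every member but HLA-DRA had a lower place: CIITA ranked 11, HLA-DRB1 19, HLA-DPA1 56, HLA-DMA 421, HLA-DMB 814, RFX5 4090, IFI30 11064 and CTSS 11548.

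**Figure D3:**
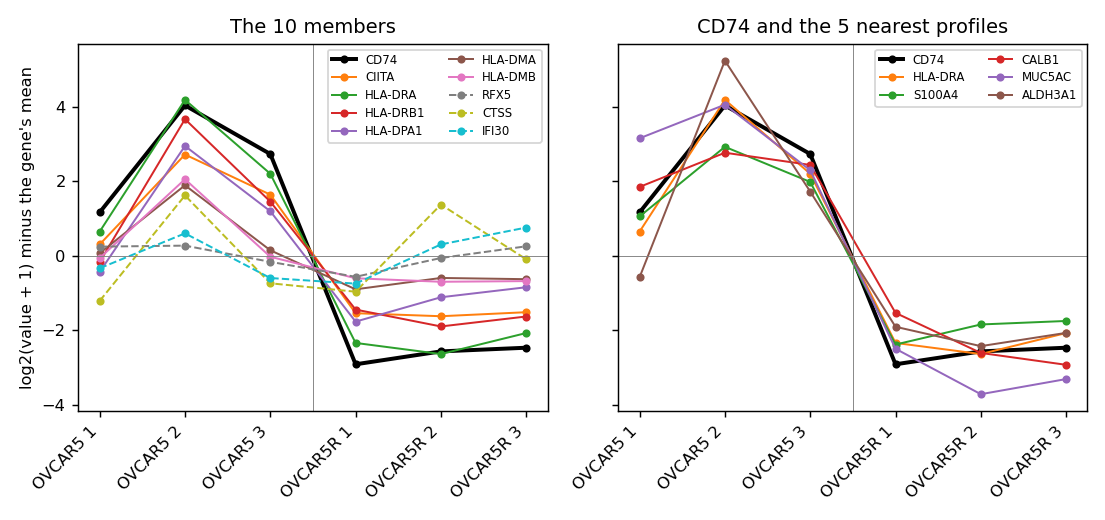
Values over the 6 libraries as log2(value + 1) minus the mean of each gene, for the 10 members (left) and for CD74 with the 5 genes of nearest profile (right). The 7 solid member lines are above 0 or near it in OVCAR5, peak in OVCAR5 replicate 2 and are below 0 in OVCAR5R, whereas the dashed lines of RFX5, CTSS and IFI30 cross between the lines.

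Only 3 of 10 other class II chains on the list had a row, and the other 7 were not analysed here. HLA-DOA, a chain of the HLA-DO pair that restrains HLA-DM, was at 1.92, 10.8 and 5.17 in OVCAR5 and at 0.434, 0.416 and 0.411 in OVCAR5R. Its groups did not overlap, and its difference of -2.07 (SE 0.51) missed the threshold over all genes (limma adjusted p = 0.270). HLA-DOA reached the level for testing only through the OVCAR5 libraries, so its difference is a description. HLA-DQB1, the beta chain of HLA-DQ, was too low to test, at 0.244, 3.85 and 0.479 in OVCAR5 and 0.245, 0.109 and 0.0559 in OVCAR5R.

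The wider pathway was taken from 8 lists of 77 genes that hold none of the members. Of these, 59 had a row and 57 were tested. By limma none was called in either direction, and at an unadjusted p under 0.05 there were 2 higher and 8 lower in OVCAR5R, where 4.14% and 6.25% of all genes tested were. The adjusted p ran from 0.243 to 0.996, and the median difference was -0.109. Of the 57 genes, 7 were lower in OVCAR5R without overlap and none was higher, against 8.18% and 8.40% of all genes. HLA-DOA, which was tested only through its OVCAR5 values, is among these 7 and among the 8 above. A p that misses the threshold with 3 cultures a line does not show that a gene was level.

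Among the 5 class II promoter factors tested, which sit with RFX5 on the X and Y boxes, no gene had an adjusted p below 0.587. NFYA, a subunit of the CCAAT-binding NF-Y complex, had the highest difference at 0.47 (SE 0.27), followed by RFXANK, a partner of RFX5, at -0.06 (SE 0.24). NFYB at -0.15 (SE 0.20) and NFYC at -0.10 (SE 0.19), the other NF-Y subunits, were the lowest. All 5 lay much nearer to 0 than CIITA or CD74.

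Interferon-gamma reaches CIITA through its receptor, the JAK kinases and transcription factors such as IRF1, and 7 of 8 listed genes were tested. IRF1, which acts at the CIITA gene, had the lowest difference, -0.87 (SE 0.33, limma adjusted p = 0.419), with 104, 152 and 84.0 in OVCAR5 and 46.3, 91.9 and 50.3 in OVCAR5R. IFNGR2, a receptor chain, was at -0.52 (SE 0.52). JAK1, a receptor-bound kinase, was highest at 0.28 (SE 0.21). IRF1 was highest in OVCAR5 replicate 2 like CD74, but it was lowest in replicate 3.

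All 9 co-activators and chromatin regulators that act with CIITA or silence its gene were tested, and their adjusted p were 0.714 or higher. The lowest were EP300, a histone acetyltransferase, at -0.38 (SE 0.34) and EZH2, the methyltransferase of Polycomb complexes, at -0.26 (SE 0.25). The highest were SIN3A, a co-repressor scaffold, at 0.05 (SE 0.21) and SMARCA4, a chromatin remodelling ATPase, at 0.04 (SE 0.19).

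Of the 13 other lysosomal proteases and inhibitors tested, 9 were below 0, with a median of -0.342. By limma none was called, and 4 were lower at an unadjusted p under 0.05, as were 6.25% of all genes tested. CTSD, the aspartic protease cathepsin D, was at 836, 1324 and 701 in OVCAR5 and at 272, 367 and 477 in OVCAR5R. Its groups did not overlap, and its difference of -1.34 (SE 0.31) had the lowest adjusted p of the 57 genes, 0.243 by limma. CTSO, a cysteine cathepsin, was at -0.97 (SE 0.40). At the other end were CTSV, a close relative of cathepsin L that can cut CD74, at 0.51 (SE 0.29) and CTSZ, a carboxypeptidase, at 0.33 (SE 0.35).

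Genes for the traffic and turnover of class II were split evenly, with 6 of the 12 tested above 0, 6 below 0 and a median of -0.00745. AP1M1, a subunit of the adaptor that packs cargo at the trans-Golgi network, was highest at 0.63 (SE 0.26, limma adjusted p = 0.451), and SPPL2A, the membrane protease that removes the last CD74 stub, was at 0.40 (SE 0.24). CD82, a tetraspanin found with HLA-DM, was lowest at -0.61 (SE 0.51), and AP1S1, another adaptor subunit, was at -0.40 (SE 0.39).

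CD74 also reaches the cell surface as a receptor for the cytokine MIF, with CD44 as its signalling partner. MIF was at 198, 429 and 254 in OVCAR5 and at 144, 158 and 193 in OVCAR5R, with a difference of -0.76 (SE 0.30, limma adjusted p = 0.441). The groups only just failed to overlap, since the lowest OVCAR5 value was 1.02 times the highest OVCAR5R value. The order of MIF in OVCAR5, replicate 2 above 3 above 1, was that of CD74, and DDT had this order too although its groups overlapped. DDT, a MIF-like cytokine, was at -0.29 (SE 0.36), and COPS5, a COP9 signalosome subunit that binds MIF, was at -0.23 (SE 0.19). CD44, a hyaluronan receptor, was at 500, 248 and 1320 in OVCAR5 and at 1243, 1371 and 1703 in OVCAR5R, a difference of 1.38 (SE 0.54, limma adjusted p = 0.429), and in OVCAR5 it was lowest in replicate 2, where CD74 was highest. CXCR4, another partner, was at 0.302 or less in each library and was not tested.

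Of the co-stimulatory and checkpoint surface genes, 5 of 9 had a row. LGALS3, a galectin, was lowest at -0.88 (SE 0.32, limma adjusted p = 0.401) and ICOSLG, the ligand of ICOS, was at -0.31 (SE 0.65). CD274, the checkpoint ligand PD-L1, was highest at 0.34 (SE 0.30), followed by CD276 at 0.08 (SE 0.20).

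**Figure D4:**
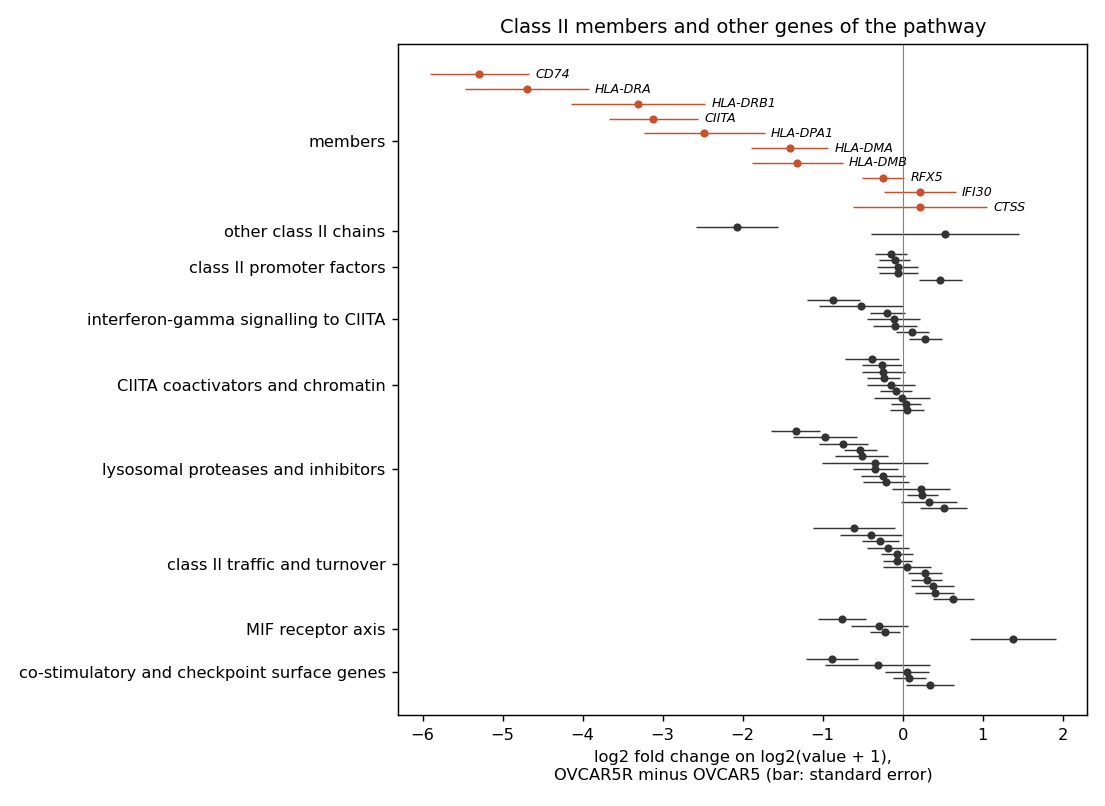
Fitted log2 fold change on the log2(value + 1) scale, OVCAR5R minus OVCAR5, with its standard error, for the 10 members (orange, named) and the 57 tested genes of 8 pathway lists (black), 1 point a gene. The members run from -5.29 to 0.22, and the genes of the other lists from -2.07 to 1.38.

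Since class II is a mark of immune cells, their markers were read beside these values. Of 18 listed markers of professional antigen presenting and other immune cells, 5 had a row, CD14, ITGAX, CD68, LAPTM5 and CORO1A, and the other 13, among them the leukocyte antigen PTPRC and the B cell genes MS4A1 and CD79A, were not analysed here. The 5 summed to between 93.6 and 123 in OVCAR5 and to between 117 and 169 in OVCAR5R. Their sum was lowest in OVCAR5 replicate 2, where CD74, CIITA and HLA-DRA were highest. Most of the sum in OVCAR5 came from LAPTM5, at 49.4, 12.83 and 38.55, and CD68, at 44.65, 40.67 and 68.26. The low sum in replicate 2 thus reflects mainly LAPTM5 and does not speak for all 5 markers. None of the 5 was at 0 in any library, and 2 of them were highest in OVCAR5 replicate 2. CD14, a monocyte receptor, was at 11.9, 20.2 and 3.55 in OVCAR5 and 2.02, 2.90 and 5.67 in OVCAR5R, and CORO1A, an actin regulator of leukocytes, was at 5.75, 12.9 and 7.87 and at 8.87, 7.60 and 7.34. Of the 10 fibroblast and endothelial markers 2 had a row, COL1A1 and PDGFRB, and they summed to between 1.77 and 15.4 in OVCAR5 and between 6.95 and 9.99 in OVCAR5R. Of the epithelial and carcinoma markers, KRT8 and KRT18, the keratins of simple epithelia, were at 1031 or more in each library, whereas WT1, a nuclear marker of serous ovarian cancer, was at 0.727 or less in each library and PAX8, a marker of Müllerian epithelium, was at 4.38 to 11.4.

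Genes near CD74 on chromosome 5 were compared to show whether a wider stretch differed. Of the 13 genes tested that start within 500 kb of the start of CD74, 7 were below 0 and 6 above 0, with a median of -0.0376, and limma called none. At an unadjusted p under 0.05 there was 1, SMIM3, with the lowest difference of -0.96 (SE 0.29, adjusted p = 0.322) at 365 kb. The highest was TCOF1, a nucleolar protein gene, at 0.61 (SE 0.36). The nearest, RPS14, a ribosomal protein gene that starts 36.8 kb away, was at -0.20 (SE 0.30), while CD74 itself was at -5.29.

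**Figure D5:**
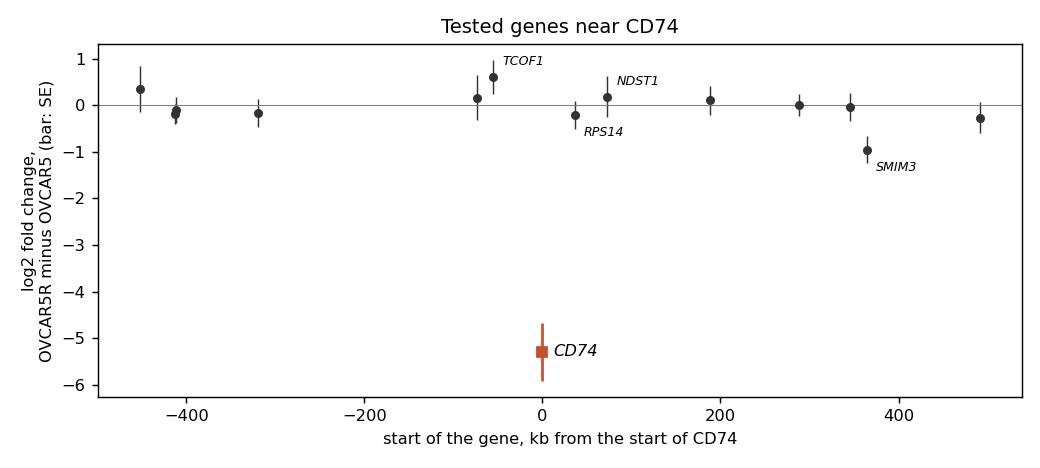
Log2 fold change on the log2(value + 1) scale, OVCAR5R minus OVCAR5, with its standard error, for CD74 (square) and the 13 tested genes that start within 500 kb of it (circles), against the distance between gene starts in kb. CD74 lies at -5.29 and its neighbours between -0.96 and 0.61.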

How the data were processed

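RNA-seq of total RNA from 3 OVCAR5 and 3 OVCAR5R cultures was analyzed from 1 table of 12309 rows by gene symbol. The authors deposited a normalized signal on a linear scale that is never below 0. Per the study's methods the datasets were quartile normalized and log-transformed before analysis, and the labels name the build hg38. The aligner, counter, annotation and gene filter are not given in the sources used here. Within a library the signal moves in steps worth 1 estimated read (0.0181 to 0.0290), and 62.6% to 66.5% of values are whole multiples within 0.01, so no count test was run. Estimated reads are values divided by that step.

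Values were set to log2(value + 1), so fold changes of low genes are understated. The 11766 genes that reached 1 in 3 or more libraries were fitted with limma 3.58.1 (trend, R 4.3.3), OVCAR5R against OVCAR5, with Benjamini-Hochberg adjustment over all genes and a threshold of 0.05. The script was tested on simulated data. The members and lists were chosen with earlier results of these data known. Genes named besides the members were the 2 highest and 2 lowest of each pathway list, all other class II chains, the 5 genes nearest to CD74 in profile, and the highest and lowest neighbours within 500 kb. One gene that this rule names is not reported here. RPS14, DEXI, BRD2 and the markers were named after their values were seen. Gene positions and transcript lengths (the median over the transcripts of a gene) were taken from GENCODE release 29, which held 12233 of 12305 symbols, and promoters from RefSeq, GRCh38.p14. Replicates were separate cultures of 1 line each. The p-values therefore set the difference between the lines against the spread between cultures, and do not extend to other resistant lines. Alternatives were quantile normalization, no trend, no filter, a mean of at least 5, a pseudocount of 0.1, a fold of at least 2, a replicate block, and leaving out each library.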

Additional observations from a re-analysis of the deposited data

How the results depend on the processing

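CD74 was below 0 in each of 12 alternatives, between -6.03 and -4.60 on the log2 scale, and both ends came from leaving out 1 library. Dropping the trend, changing the filter or adding the replicate block leaves the fitted difference of a member as it was by construction. Those alternatives could therefore not change a sign, for CD74 at -5.29 or for the other members. In the 7 members without overlap between the lines, CD74 among them, leaving out 1 library or another pseudocount could not change it either. The members were also chosen on these libraries, so the signs are a description. CIITA, HLA-DRA, HLA-DRB1, HLA-DPA1, HLA-DMA, HLA-DMB and RFX5 were also below 0 in each of 12. A pseudocount of 0.1 gave -4.05 for CIITA, -6.15 for HLA-DRA and -5.03 for HLA-DRB1, since their OVCAR5R values lie under 1. CTSS was below 0 in 3 of 11 alternatives and IFI30 in 2 of 12.

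Over all genes 14 were called, and between 13 and 17 with another normalization, trend, filter, pseudocount or fold. Leaving out 1 library gave from 0 calls (without OVCAR5R replicate 3) to 29 (without OVCAR5 replicate 2). Without OVCAR5 replicate 1 there were 3, without OVCAR5R replicate 1 there were 4 and without OVCAR5R replicate 2 there were 2. Members called, from which nothing is read since the choice of members used these values, ranged from 0 to 2. They were 0 with no filter, without OVCAR5 replicate 3, and without any 1 of the OVCAR5R libraries. No other pathway gene was called under any alternative. No clear pairing by replicate number was seen: deviations of same-numbered libraries correlated at -0.00398, 0.176 and -0.119. Those of differently numbered libraries correlated at -0.193 to 0.251. With 3 cultures a line these correlations cannot exclude a pairing. With the replicate block 5 genes and 0 members were called. Members called, the calls without a filter and the profiles without OVCAR5 replicate 2 were added after the data had been seen. The few estimated reads of HLA-DRA and HLA-DRB1 in OVCAR5R limit the precision of their folds.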
